A study of Mus musculus with 2 samples.

Results

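The genes described here are 10 mouse genes of the feedback that limits signalling through the ERK mitogen-activated protein kinase: Spry1, Spry2, Spry4, Spred1, Spred2, Dusp4, Dusp5, Dusp6, Etv4 and Etv5. They were chosen by name, with earlier results of these data known. Every probe set whose only annotated symbol is one of these was read. That gave 28 of the array's 45101 probe sets and 10 of its 18193 named genes. The cells were superficial zone cells, the chondrocytes of the surface layer of articular cartilage, isolated from femur and tibia joints of 4-day-old ICR mice. They were grown in DMEM with 10% fetal bovine serum. One culture received 10 μM retinoic acid, the active metabolite of vitamin A, for 24 h (n = 1), and the control culture received none (n = 1). Serum, which holds growth factors, was thus given to both. The comparison asked which transcripts differ after a day with retinoic acid.

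Growth factors such as those of the FGF and EGF families activate receptor tyrosine kinases, which act through Ras, Raf and MEK on ERK. Active ERK raises the transcription of its own inhibitors, so that levels of Sprouty (Spry), Spred and dual-specificity phosphatase (Dusp) transcripts, and of the ETS factors Etv4 and Etv5, are often read as a record of recent pathway activity. In growth cartilage, signalling through Fgfr3 restrains chondrocyte proliferation.

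Each culture was read on 1 Affymetrix Mouse Genome 430 2.0 array, so no difference has a replicate check, no test was run, and precision is limited by having 2 arrays. Whether 1 preparation gave both cultures, and from how many animals, is not in the labels. Values are linear MAS5 signals. The 2% trimmed mean signal was 192 on the retinoic acid array and 182 on the control array. A signal at or below the array's own median, 29.7 with retinoic acid and 26.5 in control, was treated as not measured, and this median is called the floor. For a gene that passed the floor on a single array, only a bound is given, worded "at least". Repeat probe sets of a gene, the only repeat measurement here, scattered in log2 ratio with an SD of 0.33 over 3333 genes at signals like those of the feedback genes. That SD holds no variation between cultures.

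The labelled cell type was checked first. Of 11 chondrocyte and surface zone markers 10 were measured, all of them on both arrays. Col2a1, the main cartilage collagen, had a signal of 7366 with retinoic acid and 9538 in control, and Prg4, which encodes lubricin, 1148 and 1920 in the same order. The summed signal of these markers was 30656 with retinoic acid and 52795 in control. Of the 10 measured, 4 were at least 2-fold lower, against 4.34% of all 11884 measured genes. Among the 4 were Acan (157 against 5066) and Sox9 (94.8 against 1024). Targets of retinoic acid were high in the treated culture, with a signal for the catabolic enzyme gene Cyp26b1 of 4624 against 40.3 in control, for Tgm2 of 7329 against 230 and for the receptor gene Rarb of 1929 against 5.73.

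Spry1 had the highest ratio of the 7 feedback genes above the floor on both arrays. In all, 4 of the 10 genes were higher by 2-fold or more with retinoic acid (Spry1, Dusp5, Dusp6 and Etv5), 0 were lower by as much, 5 were closer than 2-fold or had a smaller bound, and Etv4 was below the floor on both arrays. Over all 11884 measured genes, 6.54% were higher by 2-fold or more and 4.34% lower by as much. Among the 8292 with a mean signal in the range of the 9 measured members, these shares were 7.02% and 4.9%. Dusp4 and Dusp5 passed the floor on the retinoic acid array alone, so they could only be higher. Without them, 3 of the 7 members above the floor on both arrays reached 2-fold on the higher side, against 6.03% of the 10722 genes measured on both arrays, and 0 on the lower side, against 4.03%. The median log2 ratio of the 7 was 0.93, and that of the 10722 genes was 0.014. Because the genes were chosen with earlier results known, these shares are a description and not a test. Spry4 was counted in these figures, as closer than 2-fold, through a probe set near both floors. Another of its probe sets was at least 4.02-fold higher. In these cultures fewer cells that express a gene and less of its RNA per cell cannot be told apart.

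**Figure D1:**
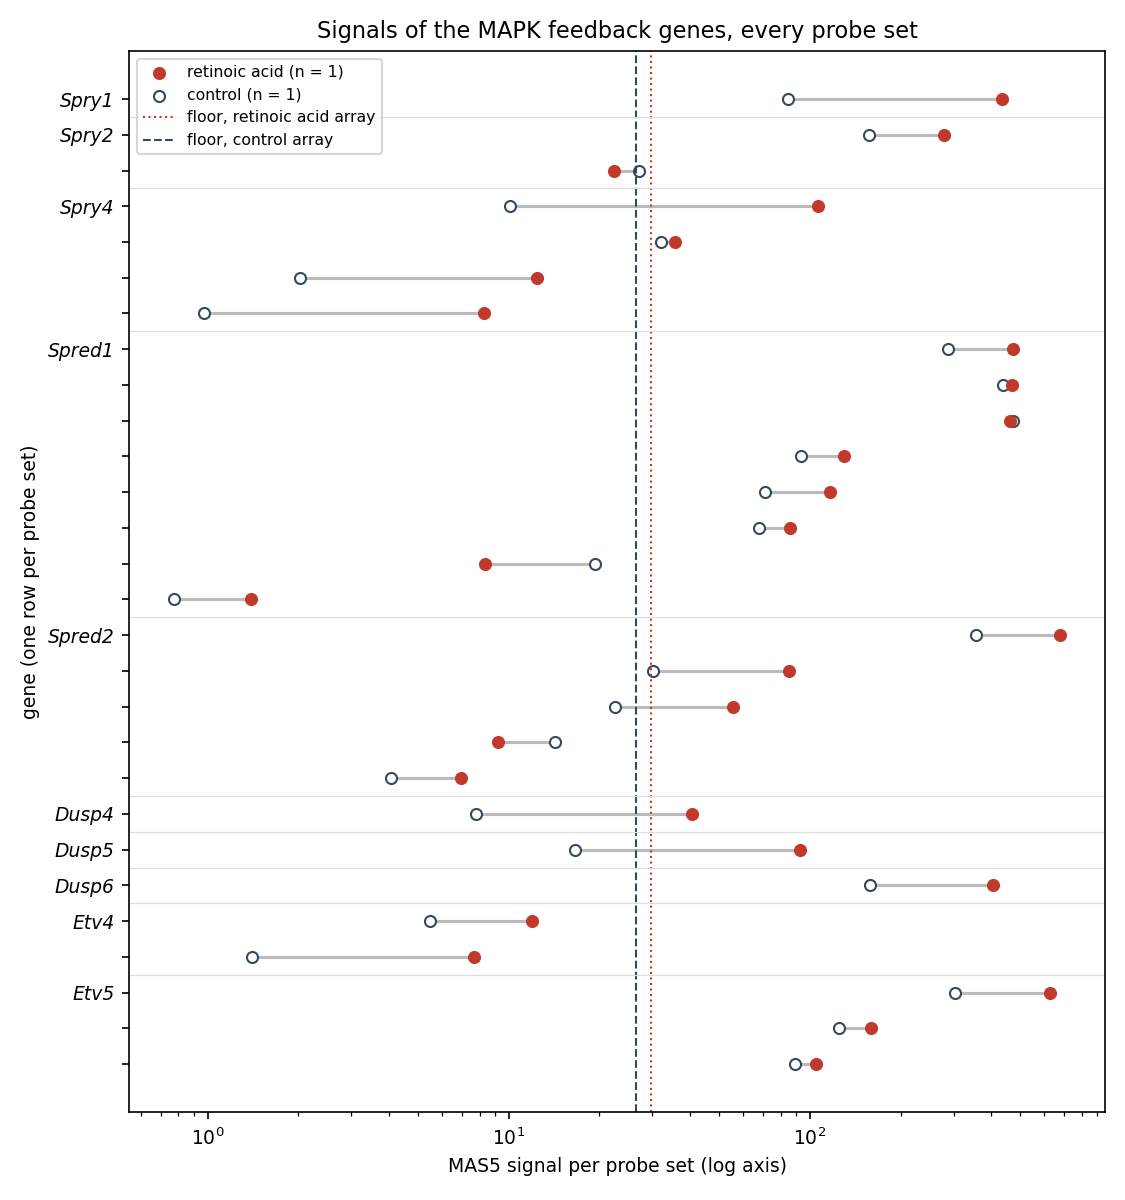
MAS5 signal (log axis) of each of the 28 probe sets of the 10 genes, 1 row per probe set, with retinoic acid as filled points and control as open points (1 array each). The vertical lines mark the 2 floors, 29.7 and 26.5. Of the 15 probe sets above both floors, 14 have the retinoic acid point to the right of the control point; the exception belongs to Spred1.

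The Sprouty genes encode membrane-associated inhibitors that act between the receptor and Raf. Spry1 had a signal of 435 with retinoic acid and 84.5 in control, a ratio of 5.14 (log2 ratio 2.36) from its single probe set. It stood 84th from the top among the 10722 genes ranked by ratio. Its log2 ratio was far larger than the scatter between repeat probe sets, but that scatter holds no variation between cultures.

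Spry2, another inhibitor of the family, had a signal of 278 with retinoic acid and 158 in control on its brighter probe set, a ratio of 1.76. Its other probe set gave 22.4 and 27.2 in the same order and had no fold, being below the floor with retinoic acid and barely above it in control. The gene thus lay short of 2-fold on the 1 probe set that could be read.

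Spry4, an inhibitor induced by FGF signalling, gave different answers on its 4 probe sets. The probe set of highest mean log2 signal read 35.5 with retinoic acid and 32.1 in control, a ratio of 1.11 near the floor of both arrays. A second probe set read 107 with retinoic acid against 10.1 in control, at least 4.02-fold higher. The remaining pair lay below the floor on both arrays. Which probe set reports the transcript was not tested, so neither ratio stands as that of the gene. The sign of the smaller one also depended on the scaling, with a log2 ratio of 0.15 as deposited and −0.03 after quantile normalization.

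Spred proteins carry the cysteine-rich Sprouty domain and recruit neurofibromin to Ras. Spred2 had a signal of 679 with retinoic acid and 356 in control, 1.91-fold higher. A dimmer probe set read 85.4 against 30.2, a ratio of 2.83, and another read 55.5 with retinoic acid against 22.5 in control, at least 2.09-fold higher. Its 3 readable probe sets therefore pointed the same way, on either side of 2-fold.

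Spred1 had smaller ratios. Its brightest probe set read 463 with retinoic acid and 473 in control (ratio 0.979), and the next by mean signal 469 and 437 in the same order (ratio 1.08). The other 4 probe sets above both floors had ratios from 1.27 to 1.65. All 6 were short of 2-fold. On the probe sets above both floors, log2 ratios were 0.93 or above for Spred2 and ran from −0.03 to 0.72 for Spred1, so the size of the difference between the 2 genes depends on the probe set.

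Dusp4, Dusp5 and Dusp6 encode phosphatases that remove the activating phosphates of MAP kinases. Dusp6, which acts on ERK in the cytoplasm, had a signal of 405 with retinoic acid and 158 in control, 2.56-fold higher (log2 ratio 1.36, 357th from the top of 10722). Dusp5, a nuclear phosphatase of ERK, read 92.7 with retinoic acid against 16.6 in control, at least 3.50-fold higher. Dusp4, also nuclear, read 40.5 with retinoic acid against 7.75 in control, at least 1.53-fold higher. Each of these 3 genes has 1 probe set, and the last 2 were below the floor in control.

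Etv4 and Etv5 are ETS transcription factors of the PEA3 subfamily and mediate part of the transcriptional response to FGF. Etv5 had a signal of 626 with retinoic acid and 302 in control on its brightest probe set, 2.07-fold higher. Its other 2 probe sets read 160 against 125 (ratio 1.28) and 105 against 89.3 (ratio 1.17). All 3 were higher with retinoic acid, but only the first reached 2-fold, so the call rests on that probe set. Etv4 gave signals of 11.9 and 7.65 with retinoic acid and of 5.46 and 1.41 in control, all below the floor, and no fold is given.

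**Figure D2:**
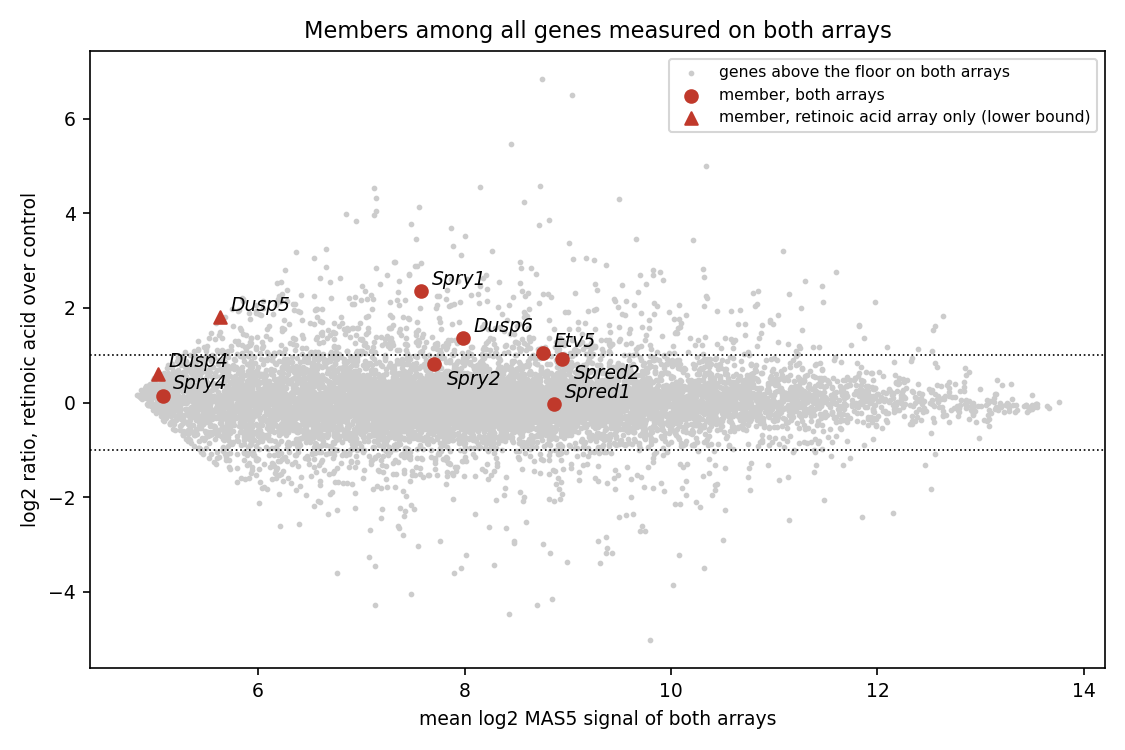
Log2 ratio of retinoic acid over control against the mean log2 signal for the 10722 genes above the floor on both arrays (grey) and for the measured feedback genes (red; triangles are bounds, placed at the control floor). Spry1 (2.36), Dusp5 (at least 1.81), Dusp6 (1.36) and Etv5 (1.05) lie above the upper dotted line at 2-fold, and Spred1 (−0.03) lies on the centre of the cloud.

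Counted by probe set rather than by gene, 15 of the 28 were above both floors. Of these 14 had a ratio above 1, against 53.3% of all 18993 such probe sets with 1 symbol. Past 2-fold on the higher side were 4, against 5.95%, and on the lower side 0, against 3.56%. Of the 15 probe sets 6 belong to Spred1 and 3 to Etv5, so they are not independent. The genes closest to Spry1 over the 2 log2 signals, by Euclidean distance, were Mmp11 (distance 0.23), Meis2 (0.25) and Dock6 (0.26). Those closest to Spred1 were Pphln1 (0.0066), Apc (0.017) and Ciapin1 (0.018). With 2 arrays this likeness says only that the signals are of similar size.

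Sequence upstream of the RefSeq start site (mouse build GRCm38.p6) was held for 7 of the 10 genes, in 8 windows of 250 bases. The windows of Spry1, Dusp5 and Dusp6, each at least 2.56-fold higher on its single probe set, are shown, 5′ to 3′ on the strand of the gene, because Dusp5 differs from the others in a motif. Capitals mark CArG boxes, the element bound by serum response factor, which acts with ETS factors that ERK phosphorylates.
Spry1, chr3:37639697-37639946, plus strand: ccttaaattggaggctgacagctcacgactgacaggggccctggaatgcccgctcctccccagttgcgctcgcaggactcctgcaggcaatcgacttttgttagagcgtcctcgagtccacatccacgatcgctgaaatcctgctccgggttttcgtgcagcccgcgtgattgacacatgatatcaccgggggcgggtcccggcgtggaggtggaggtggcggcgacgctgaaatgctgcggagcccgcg
Dusp5, chr19:53528895-53529144, plus strand: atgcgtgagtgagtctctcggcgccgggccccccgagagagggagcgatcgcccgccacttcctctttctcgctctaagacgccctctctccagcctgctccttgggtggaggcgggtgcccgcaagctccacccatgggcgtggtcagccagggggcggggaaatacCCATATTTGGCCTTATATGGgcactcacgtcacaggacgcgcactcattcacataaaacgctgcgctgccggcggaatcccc
Dusp6, chr10:99262981-99263230, plus strand: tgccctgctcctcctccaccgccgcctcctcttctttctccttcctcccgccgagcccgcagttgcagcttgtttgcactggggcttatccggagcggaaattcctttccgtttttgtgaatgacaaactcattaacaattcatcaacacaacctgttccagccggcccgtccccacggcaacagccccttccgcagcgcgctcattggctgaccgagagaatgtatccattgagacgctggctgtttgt

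The Dusp5 window holds 2 adjoining CArG boxes, from 82 to 73 and from 72 to 63 bases before the start, and both read as the motif on either strand. A CArG box was present in 1.47% of all 32851 windows of this length and in 1 of the 8 windows of the feedback genes. The other motifs, searched on both strands, had 0 matches in these 8 windows. They were AGGTCA, a half-site of retinoic acid receptors (14% of all windows), and its repeat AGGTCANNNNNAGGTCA (0.00913%). The rest were CCGGAA, a form of the ETS motif (12%), the AP-1 motif TGANTCA (6.75%) and the cyclic AMP response element TGACGTCA (1.55%). Other forms of the ETS motif and of the half-site were not searched, and the windows may hold them. A match is a description of the letters and not a binding site, and no match says only that these letters are not in the window.

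Relatives of the 10 genes were read in the same way. For this list and those below, the shares over all 11884 measured genes were 6.54% higher and 4.34% lower by 2-fold or more. Of 9 relatives read, 6 were measured. Past 2-fold, 1 was higher and 1 lower, and the median log2 ratio was 0.098. Dusp1, which encodes a phosphatase of p38 and JNK as well as ERK, had a signal of 2996 with retinoic acid and 947 in control, 3.16-fold higher. Dusp8, a phosphatase of JNK and p38, read 47.6 against 112.7 and was 2.37-fold lower. The count of lower relatives was 0 at the 70th percentile floor and with the median signal as an offset, and 2 with no floor. Dusp7, like Dusp6 a cytoplasmic phosphatase of ERK, read 215 with retinoic acid and 222 in control, a difference smaller than the scatter between probe sets. Etv1, the remaining PEA3 gene, was not analysed here because its probe sets carry more than 1 symbol.

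Upstream of the feedback, ligands and receptors of the FGF family lay on both sides. Among 13 FGF and EGF family ligands read, 8 were measured, 4 of them on both arrays. Past 2-fold, 1 was higher and 2 were lower, and the median log2 ratio was −0.20. These values depended on the floor, with 3 higher at the 30th percentile floor and with no floor, and 0 higher at the 70th percentile floor or with genes above both floors only. The last setting gave a median of −0.77. The lower count was 1 at the 70th percentile floor, with the median signal as an offset and with the median over probe sets. Fgf18, a growth factor for chondrocytes, read 225 with retinoic acid against 11.6 in control, at least 8.48-fold higher. Fgf7 read 164 against 387 and was 2.35-fold lower on both of its probe sets. Tgfa, an EGF receptor ligand, read 48.2 against 114 (2.37-fold lower), but a second probe set had a log2 ratio of 0.32. Fgf18, the highest ligand, was therefore read on 1 array only, and Tgfa had probe sets of opposite sign.

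Of 18 receptor and coreceptor genes 16 were measured. Past 2-fold, 3 were higher and 2 lower, and their median log2 ratio was 0.046. With unique probe sets only, 1 was lower, because that setting leaves out Fgfrl1. Fgfr3 read 230 with retinoic acid against 1943 in control, 8.47-fold lower, and Fgfrl1, which encodes an FGF receptor without a kinase domain, was 2.47-fold lower (694 against 1716). Fgfr2 read 813 against 1467 (1.80-fold lower), but 1 of its 3 probe sets had a log2 ratio of −0.0018. Fgfr1 read 1322 with retinoic acid and 1019 in control, a ratio of 1.30. Fgfr3 and Fgfrl1 were thus lower past 2-fold in the culture in which Spry1 and Dusp6 were higher. Whether these differences are linked was not tested. Among receptors of other families, 3 were higher past 2-fold and 0 lower, with Pdgfra at 6023 against 2333 (2.58-fold), the hepatocyte growth factor receptor gene Met at 343 against 151 (2.27-fold) and Egfr at 2315 against 1045 (2.22-fold). Erbb2, at 83.6 against 122, and Ntrk2, at 184 against 229, were on the lower side and short of 2-fold (both chosen after their values were seen). For Egfr all 5 probe sets measured on both arrays had a ratio above 1, but only 1 reached 2-fold.

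The kinase cascade between receptor and ERK had 0 genes counted past 2-fold. Of 15 adaptor, Ras, Raf and kinase genes read, 14 were above the floor on both arrays and inside 2-fold. The other, Ksr1, read 38.2 with retinoic acid against 19.98 in control, at least 1.44-fold higher. The median log2 ratio of the 15 was 0.15. Among the 14, the largest ratios were those of Nras, 590 with retinoic acid against 386 in control (log2 ratio 0.61), and of the adaptor gene Frs3, 82.8 against 55.2 (0.59). Another probe set of Nras had a log2 ratio of 0.0028, and a dimmer probe set of Braf had one of −1.41 (Ksr1 and Braf were chosen after their values were seen). The genes of ERK itself and several other listed members were not analysed here. Transcript levels do not show the phosphorylation of ERK.

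**Figure D3:**
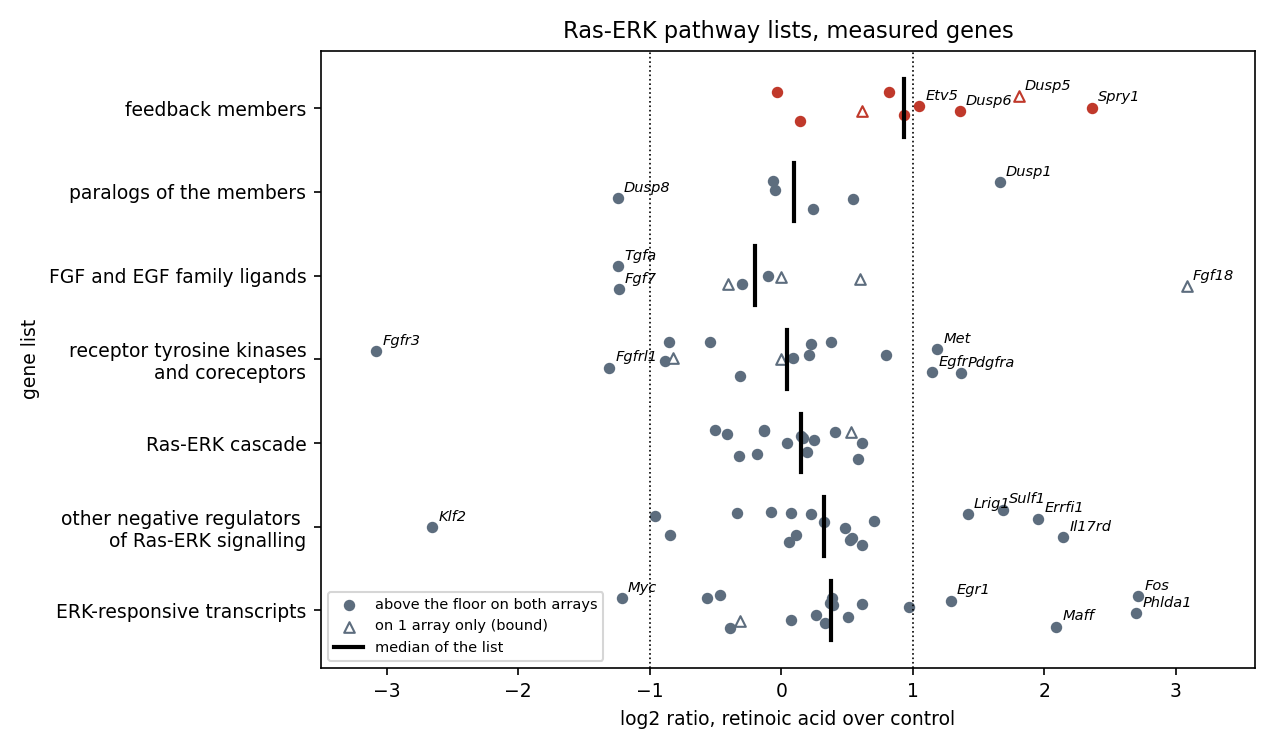
Log2 ratio of retinoic acid over control for each measured gene of the 10 feedback genes (red) and 6 other lists of the pathway (grey); filled points are above the floor on both arrays, open triangles are bounds, bars are list medians and dotted lines mark 2-fold. The medians run from −0.20 for ligands to 0.93 for the feedback genes, and every Ras-ERK cascade point lies between the dotted lines, 1 of them as a bound.

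Genes listed as inhibitors of the pathway outside the Spry, Spred and Dusp families lay on both sides. Of 19 measured, 4 were higher and 1 lower past 2-fold, and the median log2 ratio was 0.33. The lower count was 2 with the median log2 ratio set to 0 and with quantile normalization. Il17rd, which encodes Sef, a membrane inhibitor of FGF signalling, read 163 with retinoic acid against 36.9 in control (4.42-fold higher). Errfi1, which encodes the EGF receptor inhibitor Mig-6, read 3193 against 825 (3.87-fold). Sulf1, whose product removes sulfate from the heparan sulfate that FGFs bind, read 1962 against 610 (3.22-fold), and Lrig1, which promotes loss of EGF receptors, 249 against 93.1 (2.67-fold). The Krüppel-like factor gene Klf2, at 65.5 against 413, was 6.30-fold lower. It was the only listed gene lower past 2-fold as reported, and whether it acts as an inhibitor of this pathway was not tested. Short of 2-fold were Rgs2, 195 against 380 (1.95-fold lower), and Lrig3, 615 against 1105 (1.80-fold lower), both chosen after their values were seen.

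Transcripts that respond to ERK in many cell types had a median log2 ratio of 0.38. Of 18 measured, 4 were higher and 1 lower past 2-fold. With unique probe sets only, 0 were lower, because that setting leaves out the single probe set of Myc. Fos read 1062 with retinoic acid against 162 in control (log2 ratio 2.71), and Phlda1, often counted with Spry and Dusp genes in readouts of the pathway, 2124 against 327 (log2 ratio 2.70). Maff read 167 against 39.3 (4.26-fold) and Egr1 2420 against 992 (2.44-fold), while the cyclin gene Ccnd1, at 1710 against 871, was 1.96-fold higher and short of the fold counted. Myc ran the other way, with 321 against 746 (2.32-fold lower). Immediate early transcripts were not all higher. Ier2 read 556 with retinoic acid and 766 in control, and Junb 291 and 276 in the same order (both chosen after their values were seen).

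Markers of other cells found in joints were set beside these results. Of 6 endothelial markers, 5 did not pass the floor on either array, with a summed signal of 89.6 with retinoic acid and 77.0 in control. Macrophage and leukocyte markers were measured for 5 of 8 genes with 0 past 2-fold, summing to 321 with retinoic acid and 264 in control, and their pan-leukocyte gene Ptprc was below the floor on both arrays. Skeletal muscle markers summed to 450.5 and 461 in the same order, with 5 of 6 measured and 1 at least 2-fold lower (Des, 50.3 against 113.9). Osteoblast markers summed to 232 with retinoic acid and 352 in control, with 2 of 4 at least 2-fold lower. Smooth muscle markers summed to 5805 with retinoic acid and 3978 in control, with 1 of 4 measured genes past 2-fold (higher) and Myh11, the marker of mature smooth muscle, below the floor on both arrays. Of 3 adipocyte markers only Fabp4 was measured (2689 against 244), and Adipoq was below the floor on both arrays. The part of the smooth muscle and chondrocyte markers in the feedback genes' ratios was not tested.

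**Figure D4:**
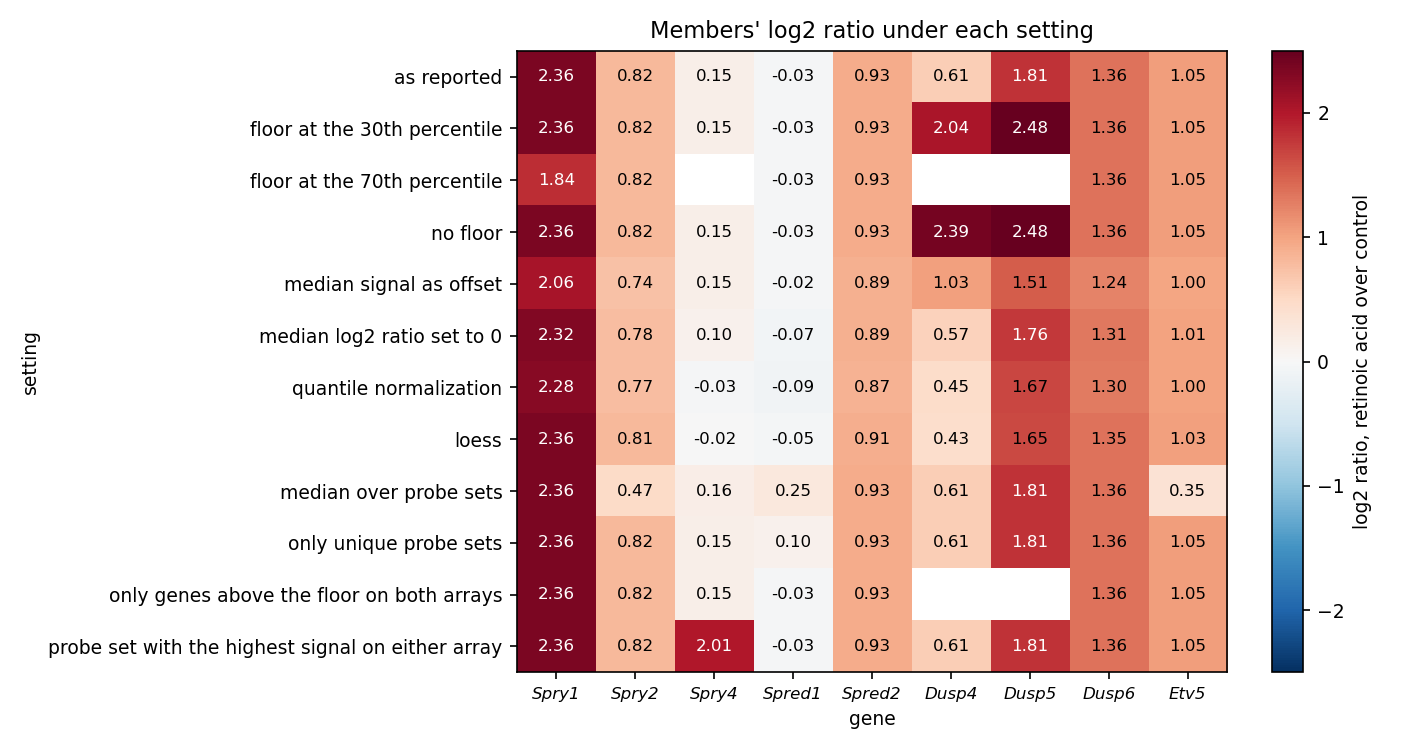
Log2 ratio of retinoic acid over control for the 9 measured feedback genes (columns) as reported and under 11 other ways of processing the 2 arrays (rows); an empty cell means not measured under that setting. Spry1 and Dusp6 stay past 2-fold (log2 ratio of 1) in every row, and the value of Spry4 depends on the probe set chosen, 0.15 or 2.01.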

How the data were processed

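RNA from 1 retinoic acid culture and 1 control culture was read on 1 array each. The deposited values are linear intensities, 1 MAS5 signal per probe set; the submitters' processing notes name MAS5, without version, scaling target or detection calls. They were used without further scaling. Of 45037 probe sets other than controls, 34945 have 1 symbol in the platform annotation, 932 have several and 9160 have none; only the first were used. Values at or below each array's median were raised to it, and among a gene's probe sets the one of highest mean log2 signal was read. A bound that ran opposite to its array was set to a log2 ratio of 0. With 1 array per group no test was possible. The feedback genes, lists and settings were chosen with earlier results of these data known. In each list the text names up to 6 genes past 2-fold, or the 2 largest ratios where there are none, plus a few genes named whatever their value. The counting was tested on simulated data. Changes were made there only in genes well above the floor and were larger than 2-fold. Changed genes near the floor or near 2-fold were thus not covered. Promoter windows are from RefSeq. Tools were Python 3.11.15 with pandas 2.3.3, numpy 2.4.6, statsmodels 0.14.6 (loess), scipy 1.17.1 and matplotlib 3.10.9.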

Additional observations from a re-analysis of the deposited data

How the results depend on the processing

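Over 11 alternatives the number of feedback genes at least 2-fold higher ran from 3 to 6, against 4 as reported, and the number at least 2-fold lower was 0 in each. The alternatives were 30th and 70th percentile floors, no floor, the median as an offset, median, quantile and loess scaling, the median over probe sets, unique probe sets, and 2 chosen after seeing the data (genes above both floors only, and the probe set with the highest signal on either array). The median log2 ratio of the feedback genes stayed between 0.87 and 1.09, except when each gene was read as the median of its probe sets, which gave 0.61. That setting also takes in probe sets below the floor, with their signals raised to it. Of 94 single-gene values 9 moved by more than the scatter between probe sets, taken here as the SD of 0.30 over 4993 genes of any signal. They were Spry1 (1.84, a bound, at the 70th percentile), Spry2 (0.47) and Etv5 (0.35) with the median over probe sets, Spry4 (2.01) with the probe set of the highest signal, and 5 values of the bounded genes Dusp4 (up to 2.39) and Dusp5 (up to 2.48). A reversal of sign was counted only for a gene at least 2-fold from equality as reported, and 0 were found. Spry4 and Spred1, which were closer to equality, changed sign near 0 under some settings. Counts over all genes were 449 higher and 260 lower at the 70th percentile and 2137 and 2106 with no floor, against 777 and 516 as reported; at the 30th percentile 832 were lower. Of 198 values of the pathway lists 15 moved. For a count, this meant a change of more than 1.5-fold or a change to or from 0, and for a median, a change of the SD of 0.30 or more. No list median was past 2-fold as reported, so a reversal could not be counted for the lists. Sign changes near 0 did occur. The median of the relatives ran down to −0.049, against 0.098 as reported. That of the receptors and coreceptors ran down to −0.11, against 0.046, and the medians of the other lists kept their sign. Low signal limits Dusp4, Dusp5, Spry4 and Etv4. No paired analysis was possible because each group has 1 array.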
